A study of Mus musculus with 9 samples.

Results

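The 38 listed genes of the 4 mouse Hox clusters were examined for CHD7 occupancy in cardiac progenitor (CP) cells. CHD7 is an ATP-dependent chromatin remodeller of the chromodomain family. A CHD7 peak was counted for a Hox gene when its midpoint fell in the regulatory domain of that gene, which reached 5 kb upstream and 1 kb downstream of 1 TSS per gene (the basal domain) and then ran on either side until the next protein-coding gene's basal domain began, or for 1 Mb at most. By this rule, 7 of the 3761 CHD7 peaks of the series lay in the domains of the listed genes, and 7 of the 38 genes had at least 1 peak. All 9 libraries came from wild-type (WT) embryonic stem cells of C57BL6 origin, differentiated in culture to CP cells and collected on day 5. There were 3 anti-CHD7 and 3 IgG libraries made by CUT&RUN, and 3 input libraries. In CUT&RUN, an antibody-tethered nuclease releases the DNA around the bound protein. No mutant or treated cells were included, so the data describe where CHD7 was found in these cells and compare no conditions. The deposited list was pooled: it gives the positions of peaks found in at least 2 of the 3 anti-CHD7 replicates, with no height, score or depth, so no spread between replicates could be given and no test between samples was possible.

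Hox genes encode homeodomain transcription factors that give cells their position along the head-to-tail axis. Within a cluster the genes are transcribed in 1 direction, and their order along the chromosome follows the order in which they are expressed, with low-numbered genes being used earlier and further forward than high-numbered genes. In the heart field, anterior Hox genes are known to mark progenitors that respond to retinoic acid and contribute to the outflow tract and to the venous pole.

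The 7 peaks are shown here as the 300 bases around each midpoint, because they are the peaks that the rule assigned to the 38 listed genes. The reference sequence is the plus strand of GRCm38.p6 (mm10), and capitals mark matches, on either strand, to the motifs described further on. The Hoxc9 upstream peak was at chr15:102975399-102976179, the Hoxa5 intron peak at chr6:52202825-52203379, the Hoxd1 upstream peak at chr2:74759512-74761190, the Hoxc9 intron peak at chr15:102980346-102980734, the Hoxa4-Hoxa5 peak at chr6:52198771-52200994, the Hoxb1-Skap1 peak at chr11:96447678-96448491 and the Hoxc13-Calcoco1 peak at chr15:102783434-102783919. They are ordered by the distance from the midpoint to the nearest Hox TSS.
Hoxc9 upstream peak: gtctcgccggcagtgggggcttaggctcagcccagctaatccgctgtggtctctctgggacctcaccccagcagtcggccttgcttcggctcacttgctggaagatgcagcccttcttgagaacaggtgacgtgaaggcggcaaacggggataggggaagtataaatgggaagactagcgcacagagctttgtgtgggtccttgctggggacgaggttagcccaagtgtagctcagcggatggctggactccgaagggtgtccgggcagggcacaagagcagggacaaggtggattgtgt
Hoxa5 intron peak: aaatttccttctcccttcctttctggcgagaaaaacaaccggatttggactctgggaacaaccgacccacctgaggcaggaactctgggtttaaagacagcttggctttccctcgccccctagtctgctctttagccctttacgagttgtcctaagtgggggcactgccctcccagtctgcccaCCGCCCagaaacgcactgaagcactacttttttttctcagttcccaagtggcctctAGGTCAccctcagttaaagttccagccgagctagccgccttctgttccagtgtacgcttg
Hoxd1 upstream peak: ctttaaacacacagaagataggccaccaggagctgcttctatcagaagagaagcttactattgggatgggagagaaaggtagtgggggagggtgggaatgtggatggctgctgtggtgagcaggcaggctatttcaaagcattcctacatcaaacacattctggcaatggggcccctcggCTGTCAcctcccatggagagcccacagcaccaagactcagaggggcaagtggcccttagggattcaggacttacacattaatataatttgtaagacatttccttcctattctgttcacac
Hoxc9 intron peak: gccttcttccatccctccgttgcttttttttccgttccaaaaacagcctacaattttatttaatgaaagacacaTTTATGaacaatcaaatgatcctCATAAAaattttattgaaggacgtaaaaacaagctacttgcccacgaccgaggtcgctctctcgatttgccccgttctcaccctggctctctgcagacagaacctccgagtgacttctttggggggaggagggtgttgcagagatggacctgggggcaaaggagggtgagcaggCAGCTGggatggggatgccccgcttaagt
Hoxa4-Hoxa5 peak: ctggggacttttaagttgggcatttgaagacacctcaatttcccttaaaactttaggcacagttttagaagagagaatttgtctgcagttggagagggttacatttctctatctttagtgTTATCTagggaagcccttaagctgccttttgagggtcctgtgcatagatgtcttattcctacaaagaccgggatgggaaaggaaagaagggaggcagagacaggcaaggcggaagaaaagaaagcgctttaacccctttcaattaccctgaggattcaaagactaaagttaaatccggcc
Hoxb1-Skap1 peak: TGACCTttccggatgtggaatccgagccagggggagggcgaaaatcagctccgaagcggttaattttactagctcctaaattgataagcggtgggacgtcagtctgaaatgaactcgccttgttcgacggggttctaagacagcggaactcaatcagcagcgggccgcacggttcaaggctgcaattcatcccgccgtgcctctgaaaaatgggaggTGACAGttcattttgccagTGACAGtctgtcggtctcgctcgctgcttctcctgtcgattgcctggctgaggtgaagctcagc
Hoxc13-Calcoco1 peak: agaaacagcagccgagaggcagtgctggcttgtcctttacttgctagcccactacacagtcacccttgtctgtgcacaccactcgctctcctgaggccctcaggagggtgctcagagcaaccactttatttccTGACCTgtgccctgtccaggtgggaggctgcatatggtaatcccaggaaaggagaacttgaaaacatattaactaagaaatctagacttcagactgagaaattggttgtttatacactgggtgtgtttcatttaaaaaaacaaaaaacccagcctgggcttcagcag

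The Hox genes with a peak were Hoxa4, Hoxa5, Hoxb1, Hoxc8, Hoxc9, Hoxc13 and Hoxd1. This was 18.4% of the 38 genes (95% Wilson interval 9.22% to 33.4%, which covers counting error only and takes the genes as independent, although neighbouring Hox genes share peaks). Over all 21911 protein-coding genes, 4979 (22.7%) had a peak in their domain, which lay within that interval. Within the basal domain alone, 2 Hox genes had a peak (Hoxc9 and Hoxd1), or 5.26% (1.46% to 17.3%, as all later intervals of shares a Wilson interval), beside 3.16% of all genes. By gene, the share of Hox genes with a CHD7 peak was thus close to the background.

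The clusters differed in how many peaks they held. HoxA had 2 peaks, shared by 2 of its 10 listed genes; HoxB had 1 peak, assigned to 1 of 10 genes; HoxC had 3 peaks, over 3 of 9 genes; and HoxD had 1 peak, for 1 of 9 genes. Of the 10 pairs of a Hox gene and a peak, 6 came from peaks that lay between the TSSs of neighbouring Hox genes and counted for both. With so few peaks, these counts could not be ranked beyond counting error.

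**Figure D1:**
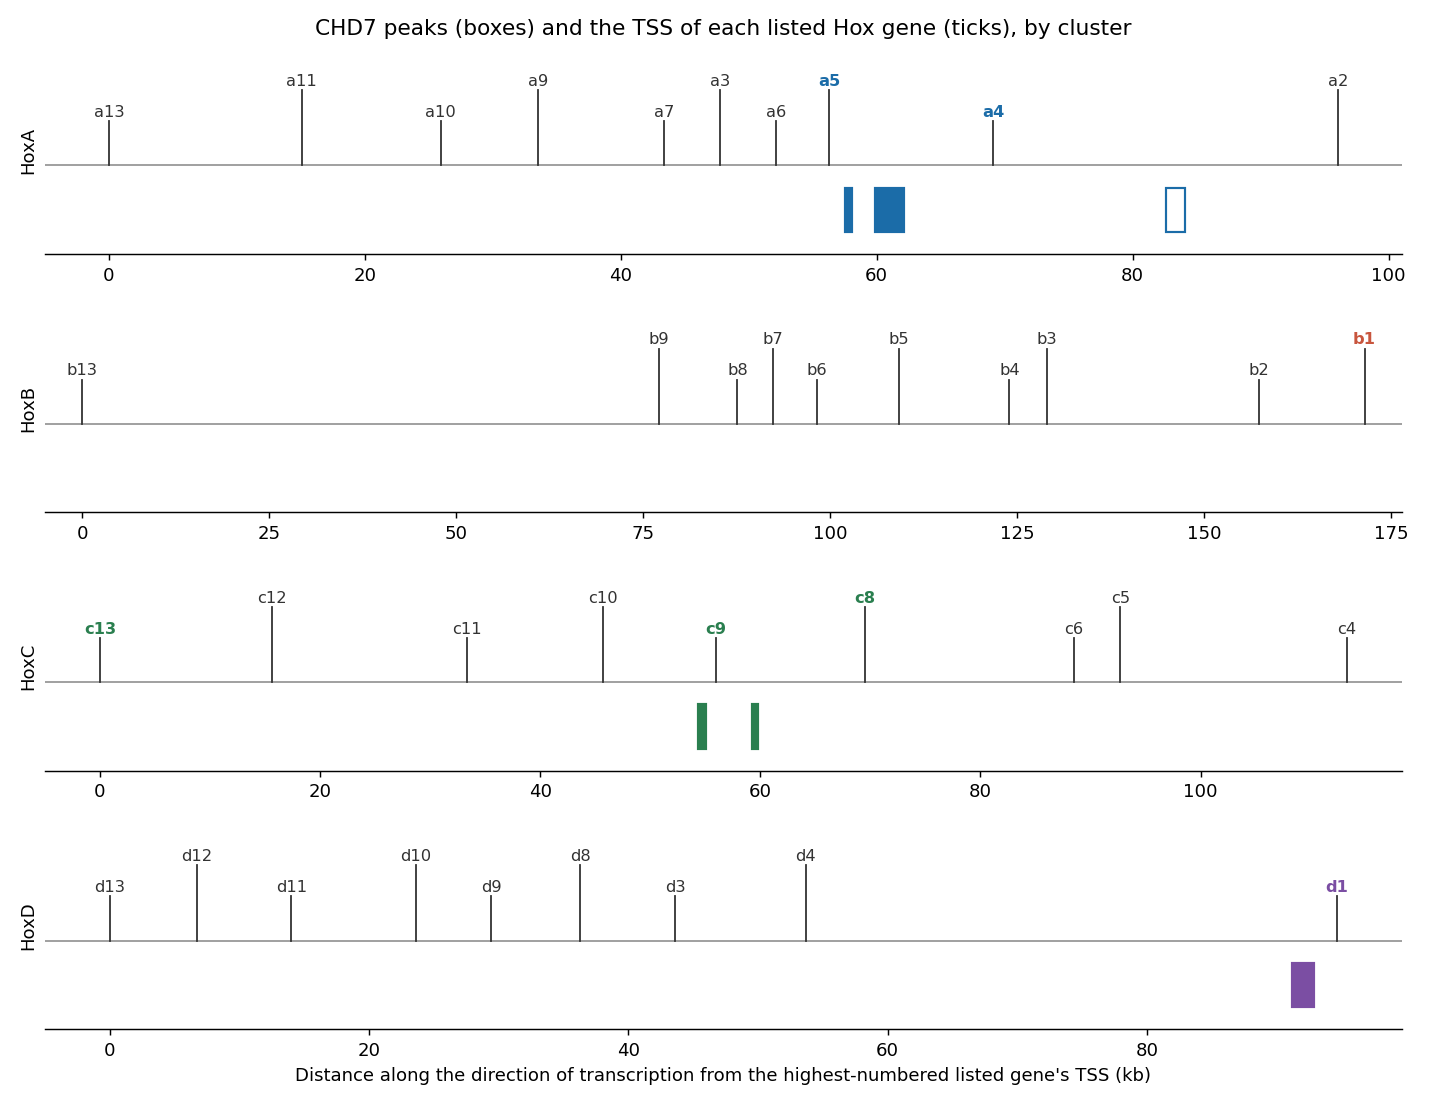
Position of the CHD7 peaks (boxes, to scale in width) and of the TSS used for each listed Hox gene (ticks, with the gene's letter and number) along HoxA, HoxB, HoxC and HoxD, in kb from the TSS of the highest-numbered listed gene, with transcription running left to right. Coloured names had at least 1 peak by the rule; the open box in HoxA is a peak in the cluster that the rule gave to another gene, and the peaks assigned to Hoxb1 and Hoxc13 lie outside the stretches drawn.

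In HoxA, both peaks lay beside exon 2 of Hoxa5, a gene required for the patterning of the neck and upper thorax and for the lung. The Hoxa5 intron peak was 555 bp wide, with its midpoint 1485 bp downstream of the Hoxa5 TSS in an intron of Hoxa5, and it overlapped 7 bp of the coding sequence of exon 2. The Hoxa4-Hoxa5 peak was 2224 bp wide, and its midpoint lay 4704 bp downstream of the Hoxa5 TSS and 8130 bp upstream of the TSS of Hoxa4, a gene with a role in patterning the neck vertebrae. The edges of the peaks were 1830 bp apart. Both midpoints also lay in an intron of the predicted read-through gene Gm28308, and both peaks overlapped the antisense RNA gene Hoxaas3. The Hoxa4-Hoxa5 peak held the 102 bp of an untranslated exon of long Hoxa3 transcripts, and its midpoint fell in exon 2 of a retained-intron transcript of Hoxa3. The midpoint of the Hoxa4-Hoxa5 peak was 1241 bp from the nearest TSS of Hoxaas3.

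A further HoxA peak, at chr6:52176808-52178267, was not counted for any listed Hox gene. It was 1460 bp wide and lay in an intron of Hoxa3, with its midpoint 12707 bp upstream of the Hoxa2 TSS. The midpoint was 40 bp downstream of the TSS of 5730596B20Rik, a predicted protein-coding gene, whose domain took it. It was 6317 bp from the nearest TSS of any Hoxa3 transcript, and 35577 bp from the Hoxa3 TSS used here, which belongs to a long transcript that starts between Hoxa6 and Hoxa7. When 5730596B20Rik and 2 other predicted or read-through genes among the Hox TSSs were left out, an alternative chosen after seeing the data, this peak was assigned to Hoxa2, and the counts became 8 Hox genes and 8 peaks. The share of all genes with a peak was 22.7% in that setting. The high-numbered genes Hoxa7, Hoxa9, Hoxa10, Hoxa11 and Hoxa13 had no peak in their domains, nor did Hoxa2, Hoxa3 and Hoxa6. The distance to the nearest peak rose along the cluster from 14403 bp at Hoxa7 to 57778 bp at Hoxa13.

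In HoxB, there was no CHD7 peak between the TSSs of Hoxb13 and Hoxb1, a stretch of 171437 bp with 10 genes. The average density over the genome would put 0.244 peaks in this length. A count of 0 could not fall below such a low value by more than counting error, so this comparison cannot show a shortage. The single peak assigned to the cluster, 814 bp wide, lay 82333 bp downstream of the TSS of Hoxb1, the hindbrain gene that is also known from cardiac progenitors. It was nearer to the TSS of Skap1, an adaptor protein gene of T cells, at 16508 bp upstream, and counted for both genes. It overlapped 135 bp of exon 3 of the noncoding transcript Gm11529. The nearest peak was 82333 bp from the TSS at Hoxb1 and 183015 bp at Hoxb13, with a median of 150091 bp over the 10 genes.

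In HoxC, CHD7 was found on both sides of the Hoxc9 TSS. Hoxc9 is known for setting the identity of thoracic motor neurons. The Hoxc9 upstream peak, 781 bp wide, had its midpoint 1243 bp upstream of the TSS used and 650 bp upstream of the nearest TSS of another Hoxc9 transcript. The Hoxc9 intron peak, 389 bp wide, had its midpoint 3508 bp downstream of the TSS used, and also counted for Hoxc8, another gene of the thoracic level, at 10067 bp upstream of its TSS. The edges of both peaks were 4166 bp apart, and both lay in an intron of a long Hoxc5 transcript. The third HoxC peak was 486 bp wide, in intergenic DNA 137426 bp upstream of Hoxc13, a gene needed for hair formation, and 61499 bp upstream of the TSS of Calcoco1, a coiled-coil protein gene. Hoxc10, Hoxc11 and Hoxc12, which lie between Hoxc13 and Hoxc9, had no peak, and neither did Hoxc4, Hoxc5 and Hoxc6.

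In HoxD, the single peak was 1679 bp wide and lay 2629 bp upstream of the TSS of Hoxd1, a gene with a role in pain-sensing neurons. It fell within Haglr, a noncoding RNA gene transcribed away from Hoxd1, 2545 bp downstream of the nearest Haglr TSS. Hoxd3, Hoxd4, Hoxd8, Hoxd9, Hoxd10, Hoxd11, Hoxd12 and Hoxd13 had no peak in their domains. The nearest peak was the Hoxd1 upstream peak for all 8, at 38373 bp from Hoxd4 and 92041 bp from Hoxd13.

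Taken by paralog group, 3 of the 11 listed genes of groups 1 to 4 had a peak (Hoxa4, Hoxb1 and Hoxd1). So did 2 of the 11 listed genes of groups 5 to 8 (Hoxa5 and Hoxc8) and 2 of the 16 of groups 9 to 13 (Hoxc9 and Hoxc13). The shares were 27.3%, 18.2% and 12.5%, beside 22.7% of all genes. The median domains were 25088, 11036 and 17207 bp, beside 90181 bp over all genes. With so few genes, the shares do not rank the groups, and their difference was not tested. Of paralog group 1, only Hoxb1 and Hoxd1 are listed, and both had a peak, so nothing is said here about this group in HoxA. Among the listed genes, each of the other groups with a peak had it in 1 cluster. The counterparts of Hoxa5 had their nearest peaks at 144573 bp (Hoxb5) and 33275 bp (Hoxc5). The counterparts of Hoxc9 had theirs at 24268 bp (Hoxa9), 176628 bp (Hoxb9) and 62624 bp (Hoxd9). Paralogs thus differed in whether this list held a peak for them, at a depth and threshold that the list does not give.

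The domains of Hox genes are short, because the genes stand close together, and this sets how many peaks a gene can receive. The median domain of the 38 genes was 15680 bp, beside 90181 bp over all genes. Of the 10 Hox genes with domains under 10 kb, 0 had a peak, and over all genes of that length the share was 4.58%. Of the 20 Hox genes with domains of 10 to 30 kb, 4 had a peak (Hoxa4, Hoxa5, Hoxc8 and Hoxc9), beside 7.86% of all such genes (6.98% to 8.85%). Of the 4 Hox genes with domains of 30 to 100 kb, 1 had a peak (Hoxd1), beside 13.7% of all genes. In the class of 100 to 300 kb, it was 2 of 4 (Hoxb1 and Hoxc13), beside 29.1% of all genes. No Hox gene had a domain over 300 kb, the class in which 45.0% of all genes had a peak.

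**Figure D2:**
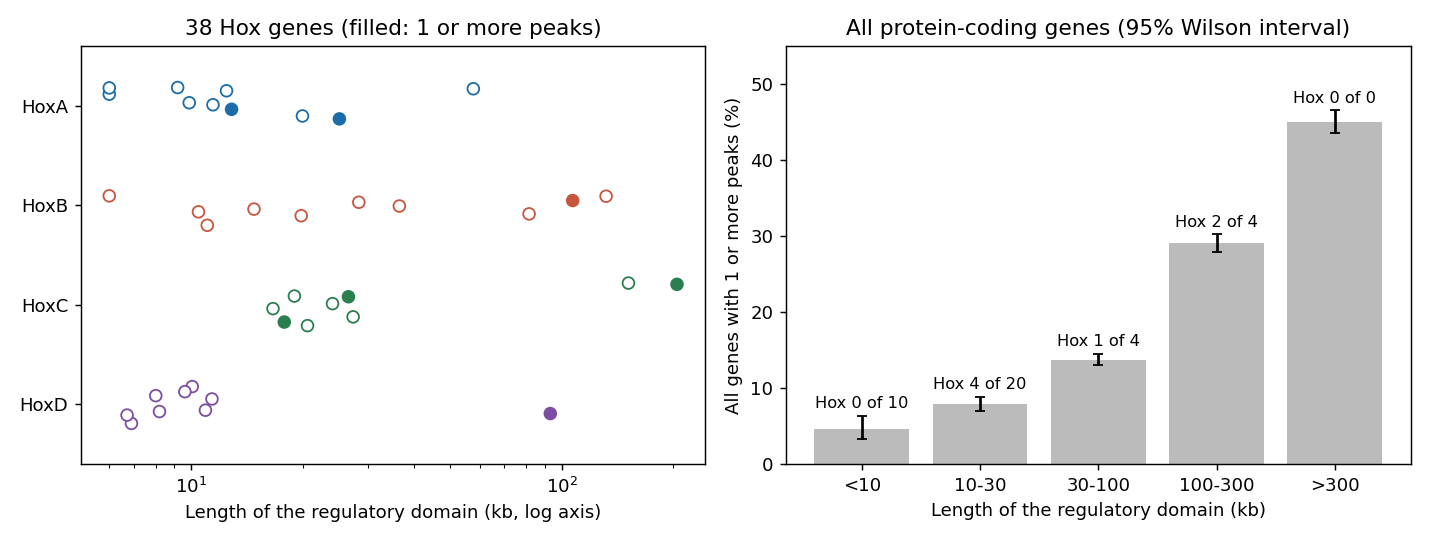
Left, length of the regulatory domain (kb, log axis) of each of the 38 Hox genes by cluster, with filled points for genes with at least 1 CHD7 peak and points spread vertically for visibility only. Right, share of all protein-coding genes with at least 1 peak in each class of domain length, with 95% Wilson intervals and, above each bar, the number of Hox genes with a peak of those in the class; the share rose from 4.58% to 45.0% with length.

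Measured per length of DNA, the Hox domains held more peaks than the genome on average. The domains of the 38 genes together covered 1055641 bp and held 7 peaks, or 6.63 peaks per Mb (exact 95% Poisson interval 2.67 to 13.7, counting error only). All domains of the genome together held 1.45 peaks per Mb, and at the genome average 1.5 peaks would fall in the Hox length. The density was 14.4 peaks per Mb in HoxA (1.74 to 51.9), 3.08 in HoxB (0.0779 to 17.2), 6.84 in HoxC (1.41 to 19.98) and 6.55 in HoxD (0.166 to 36.5), with overlapping intervals. Short domains were denser over all genes too: peaks per Mb of domain, counting a peak once for each gene, came to 4.0 for all genes with domains of 10 to 30 kb and 1.02 for those over 300 kb. By class, the value for the Hox genes was 0 under 10 kb, beside 6.36 for all genes. It was 19.99 from 10 to 30 kb, beside the 4.0 for all genes. This came from 7 pairs of a gene and a peak, 6 of them from peaks counted for 2 Hox genes. It was 3.72 from 30 to 100 kb, from 1 peak at Hoxd1, beside 2.55. It was 3.36 from 100 to 300 kb, from 1 peak each at Hoxb1 and Hoxc13, beside 2.16. No interval was made for the values by class, and they rest on too few peaks to show an excess in each class. The members were listed with earlier results in view, and the difference in density was not tested.

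**Figure D3:**
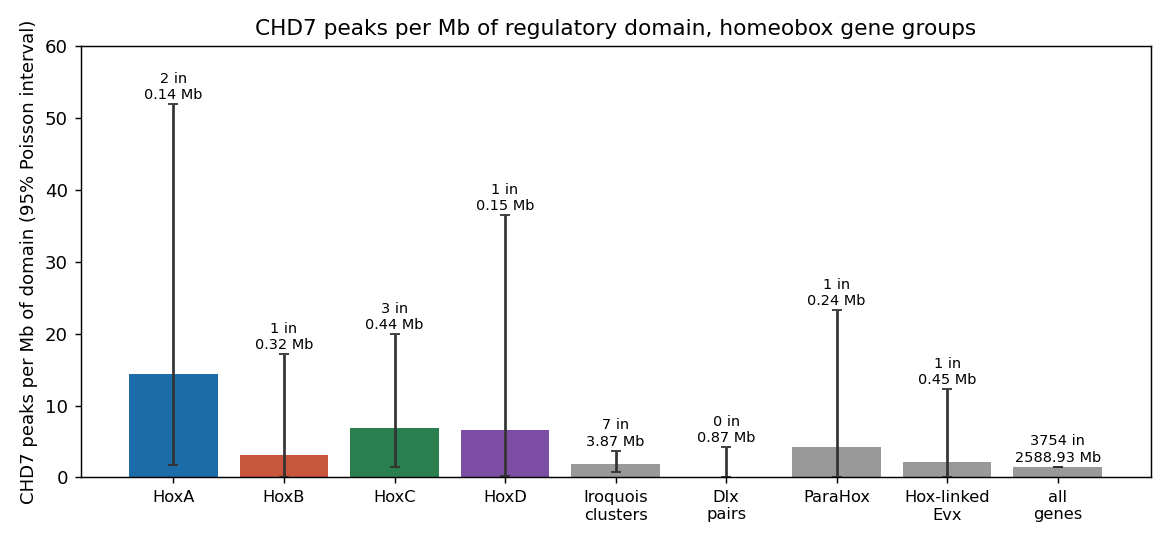
CHD7 peaks per Mb of regulatory domain (bars) in each Hox cluster and in other groups of homeobox genes, with exact 95% Poisson intervals (lines) and the number of peaks and the length of domain above each. The Hox clusters lie between 3.08 and 14.4 peaks per Mb, and the intervals of all 4 clusters overlap those of the Iroquois, ParaHox and Evx genes.

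The rule picked peaks from short domains around Hox TSSs, so their closeness to a Hox TSS was partly set by the selection. Of the 7 Hox peaks, 5 had the midpoint within 5 kb of the TSS of a Hox gene, or 71.4% (35.9% to 91.8%), beside 21.1% of all peaks within 5 kb of a TSS (19.8% to 22.4%). Genes are dense in the clusters, and 31.5% of the sequence of the Hox domains was within 5 kb of a TSS, beside 7.50% of the genome. None of the 7 midpoints was within 1 kb of a TSS used for a Hox gene. The median distance from the 38 TSSs to the nearest peak was 51140 bp, and over all genes it was 166055 bp. A peak lay within 50 kb of 19 of the 38 Hox genes, which was 9 of 10 in HoxA, 0 of 10 in HoxB, 7 of 9 in HoxC and 3 of 9 in HoxD, beside 22.3% of all genes. Neighbouring genes share these peaks, so the 38 distances are not independent.

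Most of the Hox peaks near a TSS came in pairs. Of the 7 peaks, 4 had another peak within 5 kb of their edges, namely both peaks at Hoxa5 and both at Hoxc9, beside 129 of 3760 peaks that had another peak on the same chromosome (3.43%). The pair at Hoxa5 was less than 2 kb apart, as were 51 of the 3760 peaks, or 1.36%. The members of each pair count as separate peaks in the deposited list and were not merged here. Merging peaks under 1 kb apart left 7 Hox peaks by construction, because the edges of the pairs were 1830 bp and 4166 bp apart.

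The spans from the first to the last TSS of the listed genes came to 475451 bp in all and held 6 peaks, including the one given to 5730596B20Rik, or 12.6 per Mb. In the DNA from 10 kb to 1 Mb beyond each end, 7920000 bp in all, there were 31 peaks, or 3.91 per Mb, including the Hoxb1-Skap1 and Hoxc13-Calcoco1 peaks. Span and flanks had 31.2 and 4.04 peaks per Mb in HoxA, 17.7 and 2.53 in HoxC, and 10.6 and 2.53 in HoxD. HoxB went the other way, with 0 in its span and 6.57 in its flanks. The whole genome held 1.42 per Mb. Each span held few peaks, and the difference between spans and flanks was not tested. Among peaks more than 10 kb beyond the anterior end of HoxA, the nearest was at chr6:52012066-52012778, 93 bp downstream of the Skap2 TSS. Any peak in the 10 kb next to an end was left out of these flanks. Beyond the posterior end the nearest was at chr6:52539795-52540570, in the domains of Evx1, a homeobox gene linked to HoxA, and Hibadh, a metabolic enzyme gene. On the anterior side of HoxD, peaks at chr2:75011486-75012224 and chr2:75125410-75125930 lay 248875 bp and 362690 bp beyond the Hoxd1 TSS, in DNA with no nearer protein-coding gene than Mtx2. On the posterior side of HoxD, only 1 peak was found, 749097 bp beyond Hoxd13. Apart from the Hoxb1-Skap1 and Hoxc13-Calcoco1 peaks, the flanking peaks fell in the domains of other genes.

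**Figure D4:**
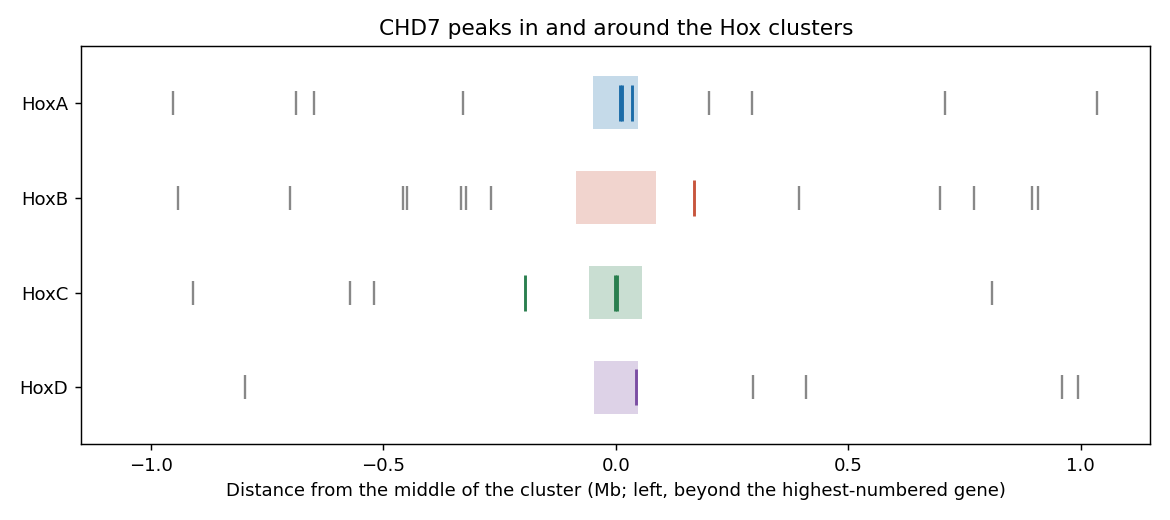
CHD7 peaks (vertical marks) along the 4 Hox clusters and up to 1 Mb on either side, as distance in Mb from the middle of the cluster, with the side of the highest-numbered gene on the left; the 10 kb next to each end are not drawn. Shaded boxes are the spans from the first to the last TSS of the listed genes; tall coloured marks are peaks in a span or in a Hox domain, and short grey marks are the other peaks. HoxB has no mark in its span.

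The Hox peaks did not stand apart as a set in width or GC content, but they differed among themselves. Their widths ran from 389 to 2224 bp with a median of 781 bp, beside 703 bp for all peaks. The Hoxa4-Hoxa5 peak was wider than 98.2% of the list, and the Hoxd1 upstream peak was wider than 93.6%. The Hoxc9 intron peak was at the other end, wider than 0.904% of the list. GC content in the 300 bp at the midpoint ran from 43.7% at the Hoxa4-Hoxa5 peak to 59.7% at the Hoxc9 upstream peak, with a median of 49.3%, beside 48.3% for all peaks.

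CpG content differed more. The ratio of observed to expected CpG dinucleotides in the same window was 0.909 at the Hoxb1-Skap1 peak, above 98.5% of all peaks. It was 0.563 at the Hoxc9 intron peak, 0.509 at the Hoxc9 upstream peak and 0.491 at the Hoxa5 intron peak, each above at least 87.2% of all peaks. The Hoxa4-Hoxa5 peak had 0.287, the Hoxc13-Calcoco1 peak 0.116 and the Hoxd1 upstream peak 0.0553, lower than all but 9.41% of peaks. The median over the 7 peaks was 0.491 and over all peaks 0.208. The further HoxA peak, given to 5730596B20Rik, had 0.672, above 93.8% of all peaks.

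**Figure D5:**
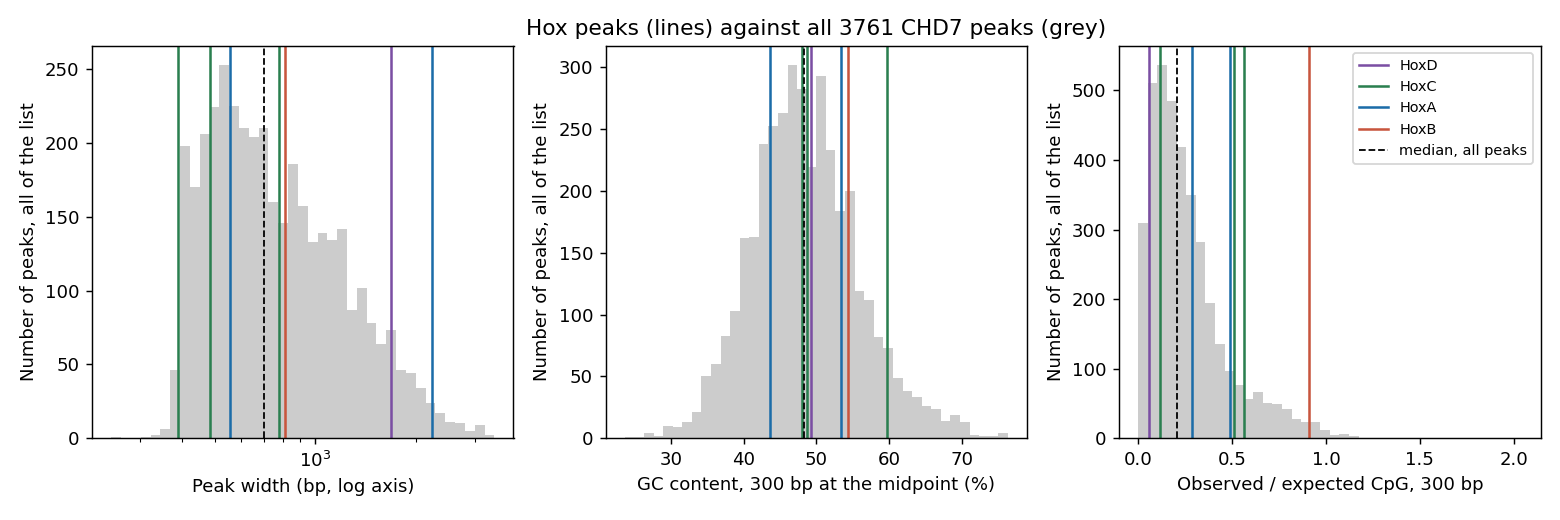
Width (bp, log axis), GC content (%) and ratio of observed to expected CpG of all 3761 CHD7 peaks (grey histograms, number of peaks) with the 7 Hox peaks as vertical lines coloured by cluster and the median of all peaks as a dashed line. The Hox peaks run from 389 to 2224 bp in width and from 0.0553 to 0.909 in CpG ratio, and both extremes of the CpG ratio are single peaks, of HoxD and HoxB.

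Motif matches in the 300 bp windows were few, and none was shared by most Hox peaks. The letters were searched on both strands, and a match is a description of the sequence. The hexamer known to bind the retinoic acid receptor, AGGTCA, was found in 3 of the 7 windows (the Hoxa5 intron, Hoxb1-Skap1 and Hoxc13-Calcoco1 peaks), or 42.9% (15.8% to 74.95%), beside 18.1% of all peaks. The MEIS letters TGACAG were found in 2 windows, with 1 match at the Hoxd1 upstream peak and 2 at the Hoxb1-Skap1 peak, beside 22.1% of all peaks. The GATA letters AGATAA were found only at the Hoxa4-Hoxa5 peak, beside 17.36% of all peaks. The caudal letters CATAAA had 2 matches at the Hoxc9 intron peak and in no other Hox window, beside 13.7% of all peaks. The SP/KLF letters GGGCGG were found only at the Hoxa5 intron peak, beside 11.2%, and the E-box CAGCTG only at the Hoxc9 intron peak, beside 16.6%. The HOX-PBX letters TGATTNAT, the MEF2 core and the CTCF core were found in 0 of the 7 windows, beside 3.83%, 0.346% and 0.984% of all peaks. The Hoxc9 upstream peak had no match to any of the 9 motifs. With 7 windows, none of these shares could be told apart from that of the whole list by its interval.

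MicroRNA genes lie among the Hox genes and are printed with their mature form because 1 of them was close to a peak. Of the 6 such genes that matched RefSeq by position (Mir10a, Mir10b, Mir196a-1, Mir196a-2, Mir196b and Mir615), Mir196a-2 lay 2424 bp from the midpoint of the Hoxc9 upstream peak, measured from the start of its 5p mature form at chr15:102973365-102973386. The other 5 were 27048 bp (Mir196b), 34277 bp (Mir10b), 34386 bp (Mir615), 130899 bp (Mir10a) and 182898 bp (Mir196a-1) from the nearest peak, measured in the same way. Mir196a-1 and Mir196a-2 give the same mature form, whose seed (bases 2 to 8, in capitals) is also that of Mir196b, and Mir10a and Mir10b share another. These genes were chosen after the positions of the peaks were seen.
mmu-miR-196a-5p: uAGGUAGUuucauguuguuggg
mmu-miR-196b-5p: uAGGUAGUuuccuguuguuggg
mmu-miR-10a-5p: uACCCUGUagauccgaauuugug
mmu-miR-10b-5p: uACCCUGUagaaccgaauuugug

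Of 8 genes for TALE cofactors, homeodomain proteins that bind DNA together with HOX proteins, 6 had a peak in the domain, with 9 peaks in all, beside 22.7% of all genes and 29.1% of all genes with domains of 100 to 300 kb. These included Meis1 with 3 peaks, the nearest 1806 bp upstream of its TSS, and Pbx4 with 1, at 121 bp downstream. Their domains were long, with a median of 242309 bp. Meis1, Meis2, Pbx3 and Pknox2 had domains over 300 kb, where 45.0% of all genes had a peak. The domains held 2.07 peaks per Mb (0.947 to 3.93), beside 1.45 for all genes and 6.63 for the Hox genes. Pbx2 and Pknox2 had no peak.

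Of 13 genes listed as upstream regulators of Hox genes, 7 had a peak, beside 22.7% of all genes. Their median domain was 159835 bp, in the class where 29.1% of all genes had a peak. Rarb, Cyp26a1, Cyp26b1 and Aldh1a2 had domains over 300 kb, where that share was 45.0%. The domains held 3.04 peaks per Mb (1.57 to 5.31), beside 1.45 for all genes. Among the 7 genes with a peak, Gata4 had 2, the nearest 3655 bp downstream of the TSS, and Cdx2 had 1, at 6235 bp downstream. Egr2 had 2, Cyp26b1 had 4, and Rarb, Cyp26a1 and Cyp26c1 had 1 each. The Cyp26 enzymes degrade retinoic acid, and Cdx2 is a caudal-type activator of Hox genes. Aldh1a2, which makes retinoic acid, and Cdx1, Cdx4, Rara, Rarg and Gdf11 had no peak. Of the 14 genes for Polycomb, trithorax and chromosome architecture proteins, which keep Hox genes off or on, 1 had a peak (Ezh2, 95217 bp downstream of its TSS), or 7.14%, beside 22.7% of all genes. Their median domain was 112134 bp, in the class where 29.1% of all genes had a peak. The domains held 0.574 peaks per Mb (0.0145 to 3.20), an interval that covered the 1.45 of all genes.

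Other clustered homeobox genes were counted in the same way. Of the 6 Iroquois genes, 5 had a peak, with 7 peaks in 3866293 bp of domain, or 1.81 per Mb (0.728 to 3.73). The median Iroquois domain was 948429 bp, in the class over 300 kb where 45.0% of all genes had a peak, beside 22.7% of genes of any length. Of the 6 Dlx genes, 0 had a peak in 869860 bp, where a count of 0 allows up to 4.24 peaks per Mb (upper end of the exact 95% Poisson interval). The ParaHox genes had 1 peak, between Pdx1 and Cdx2, which counted for both. Of the Evx genes at the posterior ends of HoxA and HoxD, Evx1 had 1 peak, 226685 bp downstream of its TSS, and Evx2 had none. The 7 peaks of the Hox genes thus equalled in number those of the Iroquois genes, in 1055641 bp of domain beside 3866293 bp.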

How the data were processed

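CUT&RUN was done on CP cells with antibodies to CHD7 or IgG, 3 replicates each, with 3 inputs. According to the labels and the study's methods, the authors trimmed reads with fastp 0.20.1, aligned them to mm10 with BWA 0.7.17.4, removed duplicates by UMI, called peaks with MACS2 2.1.2 in each sample against IgG, and kept peaks overlapping in at least 2 replicates. The deposited file gives chromosome, start and end only; starts were read as counted from 0. No read depth, peak score or value per replicate was used, so intervals cover counting error only.

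Domains were built over 21911 protein-coding genes of GENCODE M21, with 1 TSS each, chosen by coding type, APPRIS level and spliced length. Sequence came from GRCm38.p6, and miRNAs from RefSeq (GRCm38.p6). Python 3.11.15 scripts (pandas 2.3.3, scipy 1.17.1, pysam 0.24.0) were tested on simulated data. The 38 members, gene lists and motifs were chosen with earlier results of these data known; some genes of the clusters and lists are not reported here. Every peak in the domains of the 38 genes, and each gene sharing one by the rule, was named. Alternatives covered TSS choice, domain rule, peak width, merging and windows.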

Additional observations from a re-analysis of the deposited data

How the results depend on the processing

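Of the alternatives for domains, TSS, peaks and windows, those named here moved a value by more than 1.5 times, or for a share beyond its Wilson interval. With the basal domain alone, 2 Hox genes and 2 peaks remained, with 0 peaks in HoxA, 0 in HoxB and 1 in HoxC, since every peak outside 5 kb upstream and 1 kb downstream was left out by construction. The share of all genes was then 3.16%. With each peak given to the single gene with the nearest TSS, 3 of the 38 Hox genes had a peak (Hoxa5, Hoxc9 and Hoxd1), beside 14.2% of all genes. HoxB then had 0 peaks. With only peaks wider than the median of the list, 4 peaks were left, 1 of them in HoxA and 1 in HoxC. They counted for 5 Hox genes, beside 13% of all genes. With a distance limit of 1 kb, 0% of the Hox peaks were near the 1 TSS used for each Hox gene, although the Hoxc9 upstream peak was 650 bp from the TSS of another Hoxc9 transcript. Over the whole peak, 57.1% of the Hox peaks had a caudal match, beside 35.8% of all peaks. The whole-peak shares of other motifs stayed within their intervals, but those of all peaks rose. AGGTCA was in 3 of 7 Hox peaks, beside 41.6% of all peaks, and the SP/KLF letters in 2, beside 23.4%. The MEIS letters were in 2, beside 47.7%, and the GATA letters in 1, beside 36.8%. In a window of 200 bp at the midpoint, 0% of the Hox peaks had an E-box. The 5′-most TSS, an overlap of any base and merging left 7 genes and 7 peaks, beside 22.7%, 23% and 22.7% of all genes. Merging could not change the Hox counts, because no Hox peak had a neighbour under 1 kb away. An extension of 100 kb left 6 genes and 6 peaks, without Hoxc13, beside 17% of all genes. No replicate could be left out, and no paired analysis was possible because the list is pooled over replicates; the list carries no depth, and a Hox gene without a peak may have had signal below the authors' threshold.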
